A study of Mus musculus with 4 samples.

Results

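The 6 genes Mpo, Elane, Prtn3, Ctsg, Prss57 and Ms4a3, which belong to the program of primary (azurophil) granules, were followed cell by cell in the bone marrow of 5TMM mice. They were taken by gene symbol, and all 6 were found among the 32285 genes counted. A total of 4 libraries, 1 per mouse, was made with the 10x Chromium 3′ kit from marrow depleted of red cells by lysis. The model was made in C57BL/KawRij mice aged 6 weeks at the time, which received 5TGM1-luc myeloma cells by vein, and all 4 mice compared here, controls included, carried this myeloma. After 3 weeks, 2 mice were given vehicle and 2 mice were given purinostat mesylate (PM), an inhibitor selective for class I and IIb histone deacetylases, at 10 mg/kg, and marrow was taken 24 h later. A figure legend of the study speaks of independent experiments for vehicle and PM samples, without saying which mouse belongs to which.

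Neutrophils are built in the marrow from granulocyte-monocyte progenitors (GMPs), and their granules are filled in sequence. The primary granules are filled first, at the promyelocyte stage, and transcription of their contents then stops, so that mature neutrophils carry the proteins but little of the mRNA. Monocytes arise from the same progenitors and keep a smaller store of the same enzymes.

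Mpo encodes myeloperoxidase, the haem enzyme that makes hypochlorous acid from hydrogen peroxide and chloride. Elane, Prtn3, Ctsg and Prss57 encode serine proteases, namely neutrophil elastase, proteinase 3, cathepsin G and neutrophil serine protease 4. Ms4a3 encodes a membrane protein of the CD20 family that is a known mark of GMPs. It is not itself a granule enzyme, so the name primary granule genes covers it by its stage of expression.

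On the GRCm38 build, 3 of the genes lie together on chromosome 10, and the others stand alone. By the GENCODE vM21 annotation, Prss57 spans chr10:79781474-79790961 on the minus strand, Prtn3 chr10:79874476-79883174 on the plus strand and Elane chr10:79886247-79888215 on the plus strand. A gap of 83514 bp separates Prss57 from Prtn3, and 3072 bp separate Prtn3 from Elane. The next gene, Cfd (the complement protease factor D), starts after a further 2637 bp. Mpo lies at chr11:87793581-87804413 (plus strand), Ctsg at chr14:56099881-56102574 (minus strand) and Ms4a3 at chr19:11629496-11640851 (minus strand). Of the 6 genes, 3 share part of their span with a gene on the other strand, Prtn3 with Plppr3, Prss57 with Fstl3 and Mpo with the antisense gene Gm11505. Whether the counting used strand is not given in the sources used here, and how reads in those stretches were assigned was not tested.

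The sequences before the start sites are shown because the genes move together along the lineage. RefSeq gave a promoter on GRCm38.p6 for 5 of the 6 genes, all but Prss57. For Prtn3, Elane and Mpo the start used lies inside the GENCODE span given above. Each line gives the stretch, in the direction of transcription, that begins 25 bases before the letters GGAAGT, or at the nearest base available. Capitals mark matches to GGAAGT (a core bound by ETS factors such as PU.1), CAACGG (a core bound by MYB) and TATAA (the TATA box). The letters were chosen after the sequences had been seen. The stretches lie at chr10:79879549-79879643 (plus strand) for Prtn3, chr10:79886204-79886276 (plus strand) for Elane, chr11:87793537-87793610 (plus strand) for Mpo, chr14:56102705-56102804 (minus strand) for Ctsg and chr19:11640852-11640931 (minus strand) for Ms4a3. Each ends after at most 100 bases, at the start, or before more than 30 bases of an annotated exon are included, so the TATAA of Elane lies past the end of its stretch.
Prtn3: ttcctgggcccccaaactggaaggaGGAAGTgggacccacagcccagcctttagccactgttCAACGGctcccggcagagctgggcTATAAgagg
Elane: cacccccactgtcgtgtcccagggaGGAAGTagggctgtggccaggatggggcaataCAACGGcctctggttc
Mpo: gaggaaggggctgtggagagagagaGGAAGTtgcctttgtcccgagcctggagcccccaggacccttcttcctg
Ctsg: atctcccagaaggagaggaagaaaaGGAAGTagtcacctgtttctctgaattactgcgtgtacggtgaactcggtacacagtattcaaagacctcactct
Ms4a3: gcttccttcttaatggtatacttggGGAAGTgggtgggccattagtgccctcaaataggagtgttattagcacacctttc

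Within 250 bases before the start, both strands searched, GGAAGT was found in 5 of 5 promoters of these genes and in 19.7% of all 32851 mouse promoters. CAACGG was found only in those of Elane and Prtn3 among the 5 and in 4.05% of all promoters, and TATAA in those of Elane, Prtn3 and Ctsg and in 22.8% of all. The TATAA of Ctsg lay on the opposite strand, 236 to 232 bases before the start and outside the stretch shown. In Prtn3 the 3 matches lay at 93 to 88, 56 to 51 and 32 to 28 bases before the start, and in Elane at 83 to 78, 51 to 46 and 31 to 27. Prtn3 and Elane, the closest neighbours on chromosome 10, thus had the same 3 matches in the same order. TGTGGT, a core bound by RUNX factors, was found in the promoter of Ctsg alone (14.05% of all promoters), and the C/EBP letters TTGCNNAA in none of the 5 (9.56% of all). These matches are letters in a short window and say nothing of binding.

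The libraries held 69828595 to 109447030 unique molecular identifiers (UMIs, each marking 1 captured mRNA molecule) in 8242 to 13848 barcodes, and 7826 to 13387 cells per mouse were kept. Median UMIs per kept cell were 6067 and 5330.5 in vehicle mice, against 4717 and 4805 in PM mice, so the PM libraries were shallower per cell. Between 72 and 104 barcodes of each library also occurred in another. Called doublets made up 7.05%, 6.01%, 10.8% and 7.22% of the kept cells in vehicle 1, vehicle 2, PM 1 and PM 2, and values are given in this order throughout. The share called in a library was set by its number of barcodes. The first PM mouse had the most cells and so, by that rule, the most called doublets. UMIs were counted at the 3′ end and are not scaled by transcript length, and levels of different genes are compared only as UMIs.

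Cells were clustered without the 6 genes and named from markers. The myeloid classes were early stem and multipotent progenitor-like (364, 264, 623 and 410 cells), GMP-like (228, 183, 465 and 335), early cycling neutrophil precursor-like (761, 468, 850 and 559), immature neutrophil-like (2843, 1900, 3620 and 2810), mature neutrophil-like (2787, 1982, 2743 and 2165) and monocyte-like (956, 659, 1336 and 505). Levels are given as mean UMIs per cell and as CPM, the count of a gene scaled to a total of 1000000 UMIs in the class, which corrects for depth. The classes come from the same cells, so differences between them are described without a test.

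All 6 genes were highest in GMP-like cells and next highest in early progenitor-like cells, and for each gene the 4 mice of the one did not overlap with the 4 mice of the other in CPM. Summed over the 6 genes, GMP-like cells held 791, 861, 685 and 669 UMIs per cell, early progenitor-like cells 410, 329, 389 and 376, and early neutrophil precursor-like cells 21.0, 21.0, 32.9 and 19.9. From GMP-like to early neutrophil precursor-like cells the sum was 22.3 ± 5.28 (SD, n = 4 mice) times lower in CPM. Immature neutrophil-like cells held 0.757, 0.612, 1.34 and 0.990 UMIs per cell and mature ones 0.395, 0.336, 0.747 and 0.533. A high level in the GMP-like and early progenitor-like classes was thus seen in every mouse, as was a steep drop after the GMP-like class. These names do not fix the stage. The early progenitor-like class scored 1.61 on its own markers and 1.18 on those of GMPs. At a clustering resolution of 2 it had 551 cells, not 1661. A cluster of 989 cells led by Cd34 and Calr was then named GMP-like. The GMP-like class had Fcnb, a secondary granule gene, among its leading genes. Whether the peak lay in GMPs or in promyelocytes was not tested.

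In GMP-like cells, Mpo stood at 8646, 9553, 10929 and 10343 CPM and Prtn3 at 10020, 9769, 8517 and 8160 CPM. Elane had 7475, 8260, 10027 and 8009 CPM. Together these 3 genes made up the bulk of the sum in all 4 mice. Ctsg had 1740, 2085, 2285 and 1401 CPM and Ms4a3 1206, 1295, 1348 and 1222 CPM. Prss57, the least abundant, had 420, 394, 389 and 387 CPM. For each of Elane, Ctsg and Ms4a3 the ranges of the vehicle and PM mice overlapped in this class, while those of Mpo were higher and those of Prtn3 and Prss57 lower in both PM mice than in both vehicle mice. How many of all genes were without overlap was not counted.

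**Figure D1:**
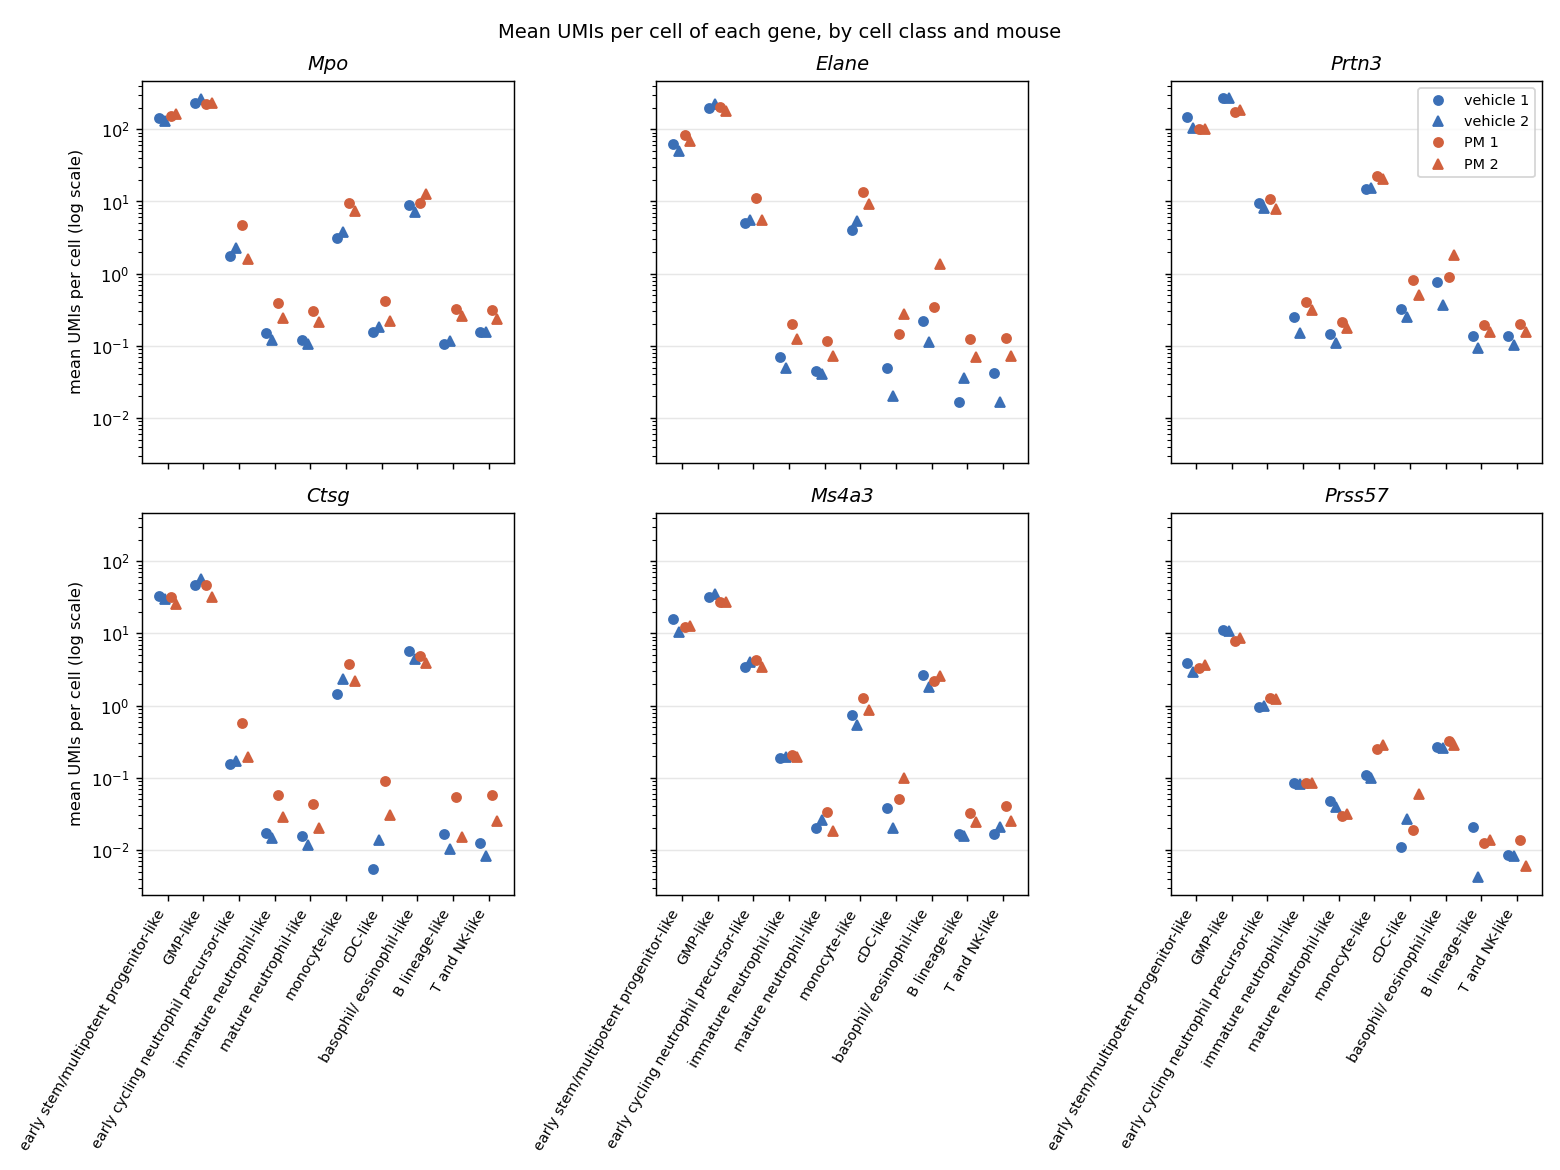
Mean UMIs per cell of each gene (log axis) in 10 cell classes, 1 point per mouse, with vehicle mice in blue and PM mice in orange. All 6 genes peak in GMP-like cells, where Mpo reaches 223 to 262 UMIs per cell. In mature neutrophil-like cells Mpo, Elane, Prtn3 and Ctsg fall to about the level of T and NK-like cells, except Elane in vehicle 2 (2.46 times that level).

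The genes parted company after the GMP-like stage. Next in order of mean CPM came basophil and eosinophil-like cells for Mpo, Ctsg and Ms4a3, monocyte-like cells for Elane and Prtn3, and early neutrophil precursor-like cells for Prss57. For Elane and Ms4a3 the mice overlapped with those of early neutrophil precursor-like cells, which came after. Elane was at 260 to 929 against 289 to 750 CPM, and Ms4a3 at 256 to 356 against 196 to 285 CPM. Mpo in basophil and eosinophil-like cells was 1175, 1022, 1508 and 1782 CPM, without overlap with the 204, 231, 667 and 459.4 CPM of monocyte-like cells. Ctsg in the basophil class had 749, 622, 770 and 547 CPM, far above Elane at 29.2, 15.7, 54.0 and 190 CPM. Summed over its cells, that class held Mpo and Ctsg with little Elane. It was small, at 91, 81, 132 and 122 cells. Called doublets held 0.658%, 43.8%, 21.9% and 42.5% of the 6 genes' UMIs there. Cells with 100 or more UMIs of the 6 genes numbered 4, 4, 5 and 9 and held 36.7%, 45.1%, 28.2% and 75.8%. Single genes were not measured in this class without doublets.

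In early neutrophil precursor-like cells Ctsg was nearly gone, at 8.68, 9.21, 38.6 and 13.2 CPM, and Mpo was at 100, 122, 312 and 108 CPM. Prtn3 at 537, 441, 737 and 541 CPM and Elane at 289, 304, 750 and 379 CPM remained higher in every mouse. Ms4a3 at 196, 216, 285 and 237 CPM was above Ctsg in every mouse and above Mpo in all but PM 1. The first PM mouse was the highest of the 4 for each of these 5 genes. As a share of the 6 genes' UMIs, Ctsg was 4.74% to 6.82% in GMP-like cells and 0.733% to 1.75% in early neutrophil precursor-like cells, and Mpo was 29.3% to 35.0% and 7.92% to 14.1%. The shares of Ctsg and Mpo were lower, and those of Ms4a3 higher, in every mouse of the later stage.

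Monocyte-like cells were weighted to Prtn3, which made up 61.1%, 55.3%, 44.5% and 51.3% of the 6 genes' UMIs there. Prtn3 stood at 967, 915, 1568 and 1310 CPM. Elane had 260, 328, 929 and 574 CPM and Ctsg 96.0, 142, 256 and 140 CPM. Ms4a3 and Prss57 were low, at 32.6 to 88.7 CPM and 5.95 to 18.0 CPM. Of the 2 monocyte-like clusters, the cycling one led by Klf4, Fn1 and F13a1 held 2424, 2429, 4859 and 3411 CPM of the sum and the other, led by Vcan, Fn1 and Ccr2, 330, 183, 585 and 624 CPM.

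**Figure D2:**
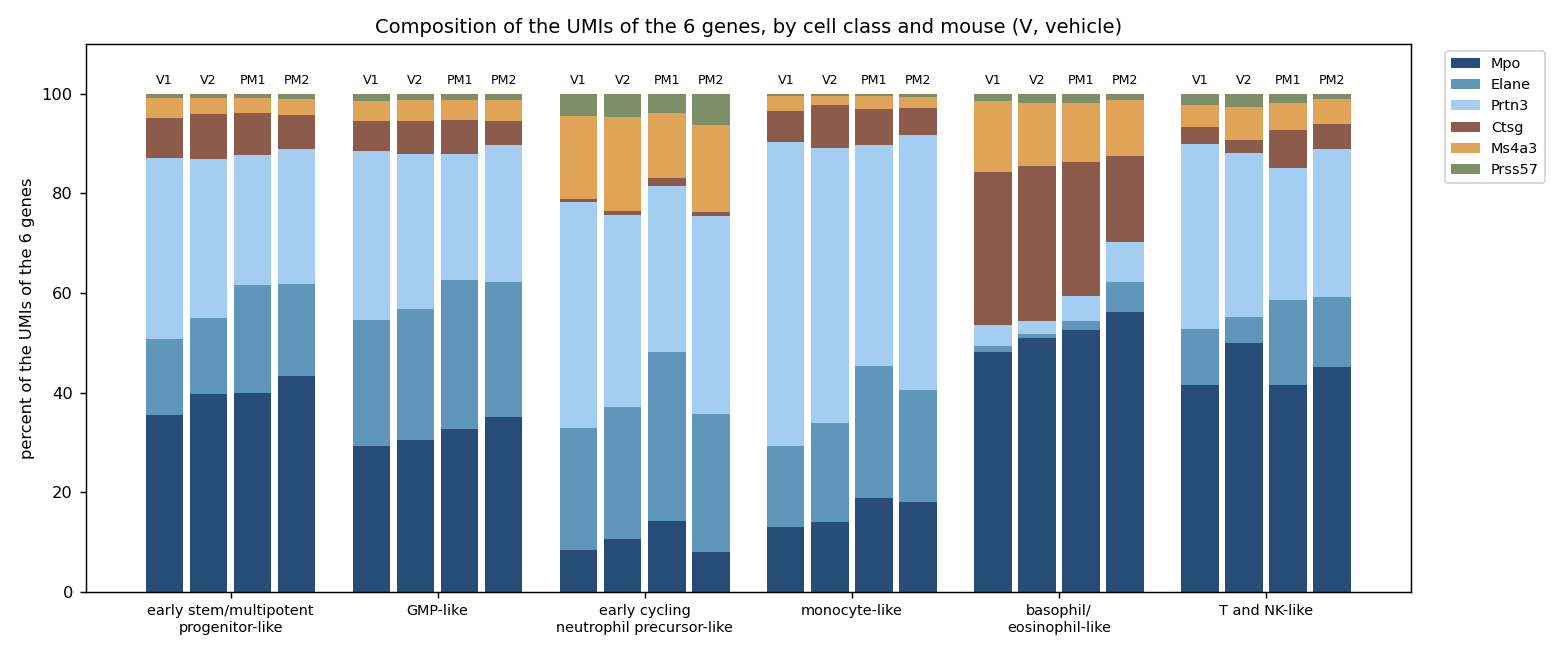
Percent of the UMIs of the 6 genes that each gene contributes, by class and mouse (V1 and V2, vehicle; PM1 and PM2, PM). Ctsg is 17.3% to 31.0% of the sum in basophil and eosinophil-like cells and under 1.8% in early cycling neutrophil precursor-like cells, and Prtn3 leads in monocyte-like cells.

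Single GMP-like cells carried the whole set. All 6 genes were detected in 92.1%, 94.0%, 94.6% and 90.7% of GMP-like cells, against 49.7%, 42.8%, 53.6% and 46.1% of early progenitor-like and 5.52%, 6.20%, 13.6% and 6.44% of early neutrophil precursor-like cells. The median GMP-like cell had 673, 794, 638 and 627 UMIs of the 6 genes. Cells differed widely around this median, from 153 UMIs at the 10th to 1551 at the 90th percentile in vehicle 1. In early progenitor-like cells the same span was 2 to 1086 UMIs in vehicle 1, so that class mixed cells with and without the program. Pairs of genes were compared across GMP-like cells with at least 2000 UMIs, each gene taken as a share of its cell's UMIs. Mpo and Ctsg were the most closely related pair (Spearman's rho 0.776 to 0.881 over the 4 mice). Elane and Prss57 were the least by the mean over mice (0.377 to 0.433), although in each PM mouse another pair with Prss57 was lower. Prss57 had only 7.95 to 11.3 UMIs per GMP-like cell, and how far low counts reduced its rho was not tested. In early neutrophil precursor-like cells Elane and Prtn3 were the closest pair, at 0.650 to 0.744.

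Low levels in later neutrophils were set beside T and NK-like cells, which should not transcribe these genes and show what free RNA in the droplets adds. Mpo was at 0.121, 0.107, 0.307 and 0.214 UMIs per mature neutrophil-like cell and at 0.155, 0.158, 0.311 and 0.232 UMIs per T and NK-like cell. Mature cells had a median of 3469, 3071, 2377 and 2712 UMIs and T and NK-like cells 3191.5, 3641, 3094 and 3638. A Mpo UMI was seen in 10.7%, 8.48%, 24.2% and 17.7% of mature neutrophil-like and in 13.9%, 13.3%, 26.6% and 19.3% of T and NK-like cells. Mpo in mature neutrophil-like cells was therefore at or below background in all 4 mice. The sum of the 6 genes in these cells was 1.06, 1.07, 0.999 and 1.04 times that in T and NK-like cells, and it is read as background.

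Prss57 stood above background in mature neutrophil-like cells and Ms4a3 in immature ones. Prss57 in mature neutrophil-like cells was at 0.0481, 0.0388, 0.0295 and 0.0314 UMIs per cell, which was 5.72, 4.68, 2.12 and 5.33 times its level in T and NK-like cells. That level was only 0.00589 to 0.0139 UMIs per cell, in 238, 241, 718 and 509 cells, so these ratios rest on few UMIs. In B lineage-like cells Prss57 was at 0.00417 to 0.0209 UMIs per cell. In immature neutrophil-like cells Ms4a3 was at 0.187, 0.193, 0.210 and 0.191 UMIs per cell, against 0.0168, 0.0207, 0.0404 and 0.0255 in T and NK-like cells. Elane and Prtn3 were also above the T and NK-like level in immature neutrophil-like cells, at 1.58 to 2.95 and 1.47 to 2.05 times, while Ms4a3 in mature ones was at 0.723 to 1.26 times. Less that background, Ms4a3 in immature cells was 0.171, 0.172, 0.169 and 0.166 UMIs per cell, nearly equal in the 4 mice. Prss57 in immature neutrophil-like cells was likewise close among mice, at 0.0837, 0.0811, 0.0851 and 0.0854 UMIs per cell.

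The background itself was higher after PM. The sum of the 6 genes was 0.374, 0.315, 0.748 and 0.515 UMIs per T and NK-like cell and 0.314, 0.272, 0.735 and 0.538 UMIs per B lineage-like cell. Both PM mice lay above both vehicle mice in each class, and the first PM mouse was the highest. Levels well below 1 UMI per cell, in any class, therefore include a background that differed between the groups.

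**Figure D3:**
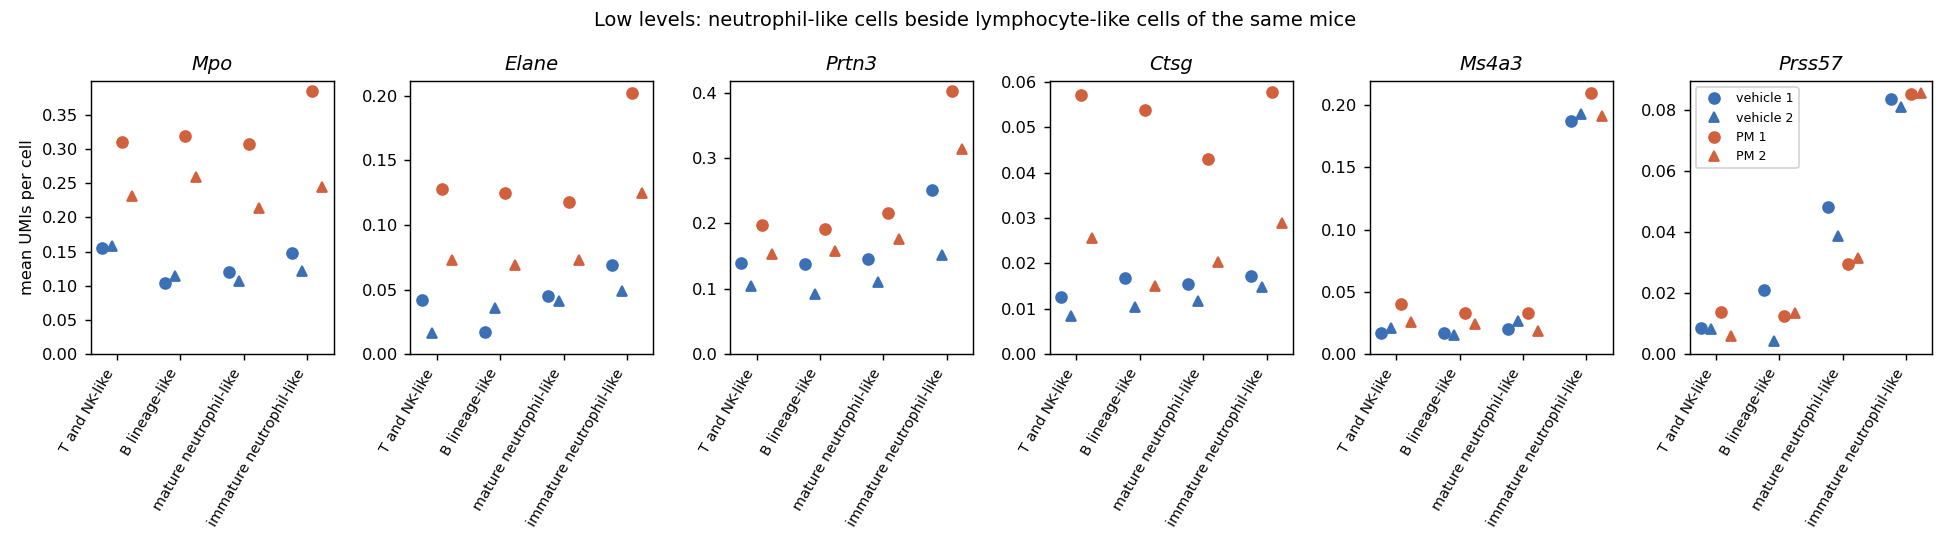
Mean UMIs per cell of each gene in T and NK-like, B lineage-like, mature neutrophil-like and immature neutrophil-like cells, 1 point per mouse. Mpo, Elane and Ctsg are about as high in mature neutrophil-like as in lymphocyte-like cells of the same mouse, except Elane in vehicle 2 (2.46 times its T and NK-like level). Ms4a3 in immature and Prss57 in immature and mature neutrophil-like cells stand above the lymphocyte-like cells.

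The first comparison asked whether PM changed the genes in the marrow as a whole. Over all kept cells, Mpo was at 1315, 1271, 2108 and 2100 CPM and Elane at 900, 891, 1684 and 1338 CPM, with both PM mice above both vehicle mice. Prtn3 was at 1628, 1327, 1776 and 1653 CPM and Ctsg at 292, 295, 460 and 315 CPM. Ms4a3 had 205, 176, 258 and 244 CPM and Prss57 61.5, 52.1, 74.0 and 77.8 CPM. The PM mice were higher for all 6 genes, by a narrow margin for Prtn3 and Ctsg.

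With edgeR's quasi-likelihood test on the sums per mouse, calls needed an adjusted p (Benjamini-Hochberg) below 0.05 and an absolute log2 fold change over 0.5. Over all cells none of the 6 genes was called, and 0.0128% of the 15581 genes tested were called in either direction, although 1993 genes had an unadjusted p under 0.05. The log2 fold changes were 0.63 ± 0.21 (SE) for Elane (adjusted p = 0.367) and 0.58 ± 0.19 for Mpo (adjusted p = 0.362). Those of Prss57, Ctsg, Ms4a3 and Prtn3 were 0.29, 0.28, 0.27 and 0.09. Both Elane and Mpo had an unadjusted p under 0.05, and DESeq2 called Mpo, at 0.54 with an adjusted p of 0.0375. In all, DESeq2 called 252 of 22266 genes there, many more than edgeR. The median over the 6 genes was 0.28, beside 0.02 over all genes tested. In such sums, more cells of a type and more RNA per cell cannot be told apart.

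By class, the sum could be divided into cell number and level per cell. The 6 genes made 40.7, 35.5, 51.7 and 45.5 UMIs per kept cell, and GMP-like cells held 47.8%, 56.7%, 46.0% and 53.1% of them. Early progenitor-like cells held a further 39.6%, 31.3%, 35.0% and 36.5%. The share of GMP-like cells was 2.46% and 2.34% in vehicle mice, against 3.47% and 3.61% in PM mice, a ratio of 1.48. Within GMP-like cells the 6 genes fell from 791 and 861 to 685 and 669 UMIs per cell, a ratio of 0.820, in cells that were also shallower after PM (median 25038 and 25798 against 19104 and 20402 UMIs). In CPM, the sum in GMP-like cells was 29507, 31357, 33496 and 29521, and the groups overlapped.

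Early progenitor-like cells made up 3.93%, 3.37%, 4.65% and 4.42% of kept cells, and their 410, 329, 389 and 376 UMIs per cell overlapped between the groups. Cells with at least 10 UMIs of the 6 genes were 12.1%, 9.92%, 15.8% and 13% of all, or 3.37 percentage points more with PM, and held 97.8% to 98.2% of the UMIs. Cells with any UMI of the 6 genes were 49.99%, 41.5%, 67.0% and 54.0%, and 28.8%, 25.01%, 47.8% and 36.2% after each cell was thinned to 2000 UMIs. In each of these shares both PM mice lay above both vehicle mice, but at a clustering resolution of 2 that of early progenitor-like cells overlapped, at 1.36%, 1.41%, 1.20% and 1.66%. The exact two-sided permutation test over the 4 mice gave p = 0.333 for each, which is the smallest p that 2 against 2 mice allow.

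**Figure D4:**
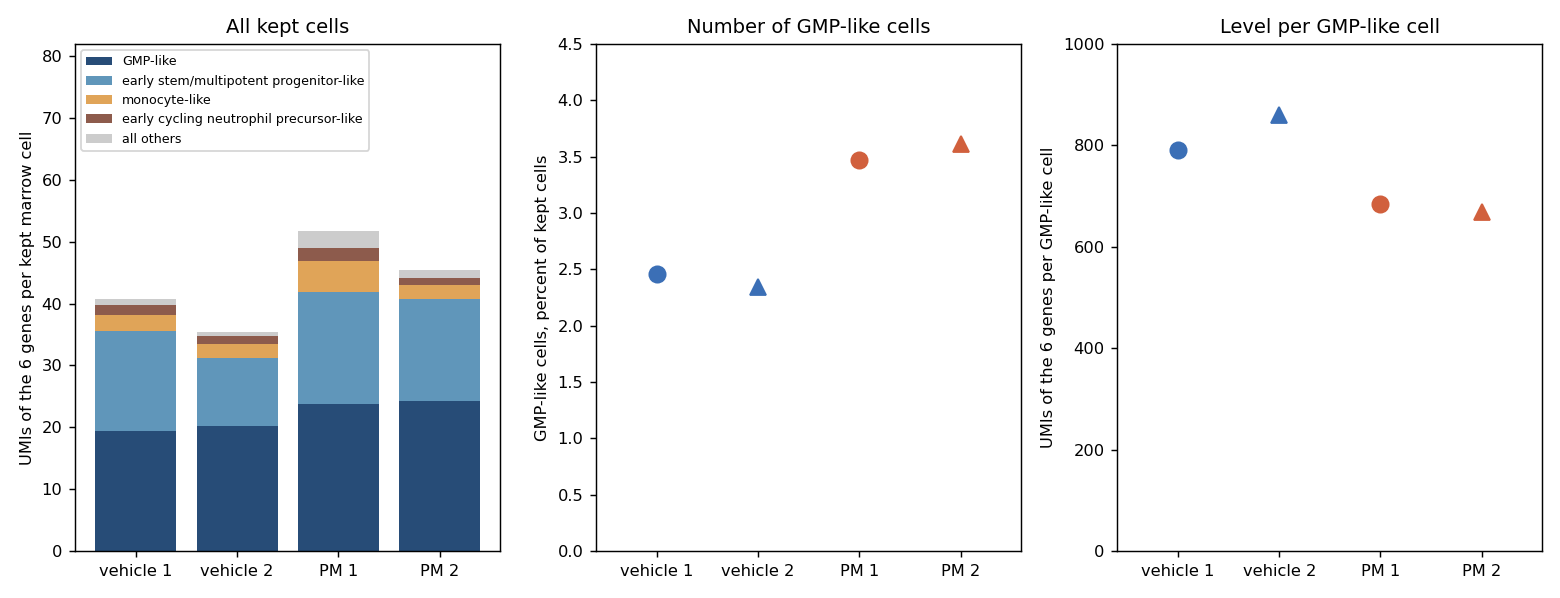
UMIs of the 6 genes per kept marrow cell, divided by the class that holds them (left), the percent of kept cells that are GMP-like (middle) and the UMIs of the 6 genes per GMP-like cell (right), 1 bar or point per mouse. With PM the GMP-like share is higher (3.47% and 3.61% against 2.46% and 2.34%) and the UMIs per GMP-like cell are lower (685 and 669 against 791 and 861).

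The next comparison asked, class by class, whether PM changed the level of the genes. In GMP-like cells none of the 6 genes was called, with 0.877% of 10722 genes called, and the log2 fold changes lay near 0. They were 0.18 ± 0.26 for Mpo, 0.16 ± 0.27 for Elane, -0.29 ± 0.25 for Prtn3, -0.08 ± 0.27 for Ctsg, -0.11 ± 0.13 for Prss57 and -0.00 ± 0.18 for Ms4a3. Prtn3 was the lowest of them, with both PM mice under both vehicle mice in CPM. In early progenitor-like cells none was called either, with 0.107% of 12146 genes called. Elane there was at 2090, 1746, 3361 and 2537 CPM (log2 fold change 0.61, adjusted p = 0.449) and Mpo at 4845, 4558, 6205 and 5991 CPM (0.35, adjusted p = 0.594). Both genes were higher in both PM mice, and no difference of theirs passed edgeR's test. At a clustering resolution of 2 the direction in this class turned, to -0.41 for Elane and -0.91 for Mpo. Ctsg (-1.07) and Ms4a3 (-1.29) were then called lower, where 47 of 10386 genes were called. At an unadjusted p under 0.05 there were 0 of 6 genes in GMP-like and 2 of 6, Elane and Mpo, in early progenitor-like cells, and DESeq2 called none in either class. The 16 markers of T and NK cells had a summed level of 1.64, 2.59, 35.7 and 33.7 CPM in the GMP-like class, and none was at 0 in all mice. Only 6 of the 16 passed the filter on low counts. At such levels a gene could pass it mainly through the PM mice. That 5 of the 6 were called higher was thus favoured by the filter and is no further support. Called doublets made up 3.07%, 3.28%, 13.8% and 7.76% of GMP-like cells. With doublets removed none of the 6 genes was called there, and the part of T and NK-like RNA in the result was not tested.

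In early neutrophil precursor-like cells Prss57 rose with PM. Prss57 was at 53.3, 53.7, 86.5 and 85.7 CPM, so that the 2 mice of each group lay close together and the groups were well apart. Its log2 fold change was 0.62 ± 0.11, with an adjusted p of 0.0128 by edgeR's quasi-likelihood test, in a class where 2.49% of 10513 genes were called. Without vehicle 1 the change of Prss57 was 0.59 and was not called (adjusted p = 0.177), and without any other mouse it was called. In UMIs per cell Prss57 was 0.943, 0.985, 1.29 and 1.25, which is at least 92.6 times its level in T and NK-like cells of the same mouse.

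The other 5 genes were not called in early neutrophil precursor-like cells, and their differences came mainly from the first PM mouse. The log2 fold changes were 1.53 ± 0.77 for Ctsg, 0.89 ± 0.78 for Mpo, 0.88 ± 0.39 for Elane, 0.33 ± 0.20 for Prtn3 and 0.28 ± 0.15 for Ms4a3. Without PM 1, that of Mpo was -0.18, that of Elane 0.21 and that of Ctsg 0.42, and with PM 2 left out, 5 of the 6 genes were called. Called doublets held 4.22%, 2.54%, 23.2% and 9.56% of the 6 genes' UMIs in this class, and with doublets removed the change of Prss57 was 0.63 and was called, while Ctsg was at 1.19, Elane at 0.72, Mpo at 0.49, Ms4a3 at 0.28 and Prtn3 at 0.19 and none of these was called. Of the 2 clusters of the class, the one led by Fcnb, Ccne2 and Cdc25a held 2359, 2257, 4488 and 3264 CPM of the sum, and the one led by Chil3, Spc25 and Ube2c 972, 890, 1753 and 1031 CPM.

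In the first of these clusters Prss57 (66.0, 64.5, 108 and 119 CPM, log2 fold change 0.79), Elane (681, 706, 1777 and 1117 CPM, 1.08) and Ctsg (15.5, 16.8, 49.7 and 28.0 CPM, 1.35) were called, where 0.996% of 8229 genes were called. Without PM 1 these were 0.78, 0.60 and 0.71, and Ctsg was no longer called. Without either vehicle mouse Prss57 and Elane were not called. In the cluster led by Chil3, Prss57 alone was called, at 51.0, 51.2, 82.3 and 79.7 CPM and a log2 fold change of 0.60, where 2.69% of 10262 genes were called. It was not called there without vehicle 1 or vehicle 2 (adjusted p = 0.211 and 0.0661 by edgeR), nor without PM 1, where it fell just short of the fold threshold (0.495). The direction of Prss57 was the same in each of the 2 clusters.

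Later neutrophils showed larger fold changes on much smaller levels. In mature neutrophil-like cells Mpo (32.7, 33.0, 120 and 72.7 CPM), Elane (12.3, 12.6, 46.0 and 24.6 CPM) and Prtn3 (39.6, 34.1, 84.0 and 59.7 CPM) were called, with log2 fold changes of 1.61, 1.57 and 1.01, where 7.85% of 9128 genes were called. Without PM 1, Elane and Prtn3 were at 1.00 and 0.71 and were not called. In lymphocyte-like cells of these mice Mpo was called in 1 of 2 classes. In B lineage-like cells Mpo was at 36.5, 35.3, 118 and 75.1 CPM and was called at 1.47 (adjusted p = 0.00225 by edgeR, 6.34% of 10498 genes called). In T and NK-like cells Mpo was at 42.9, 39.1, 90.9 and 59.4 CPM, with 0.92, and none of the 3 genes tested there was called by edgeR (1.15% of 9474 genes called), although all 3 had an unadjusted p under 0.05. A rise of Mpo, Elane and Prtn3 within mature neutrophil-like cells cannot be told apart from this background. Prss57, the gene above background in these cells, was not called (-0.13 ± 0.21).

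In immature neutrophil-like cells none of the 6 genes was called, with 6.52% of 10836 genes called, and the log2 fold changes of Elane, Ctsg, Mpo and Prtn3 were 1.75, 1.74, 1.52 and 1.11. Ms4a3 and Prss57, which stood furthest above background, had 0.36 and 0.33. Elane and Prtn3 also lay above the T and NK-like level. Less that level, Prtn3 was at 0.112, 0.0484, 0.204 and 0.161 UMIs per cell and Elane at 0.0273, 0.0323, 0.0741 and 0.0522. Both were higher in both PM mice, while Ctsg, at 0.00463, 0.00644, 0.000632 and 0.00329, was lower in both. The values less that level were not tested. By unadjusted p under 0.05 there were 5 of the 6 genes. DESeq2 called Elane, Ctsg and Mpo, where it called 487 of 17104 genes. The immature cluster with Ltf, Ngp and Camp among its leading genes was also tested alone. Ms4a3 there was at 49.2, 45.0, 91.2 and 86.8 CPM, or 0.421, 0.393, 0.627 and 0.591 UMIs per cell, and was called at 0.74 (adjusted p = 0.00645 by edgeR). In all, 5 of the 6 genes were called in this cluster, where 4.78% of 9521 genes were called, and Prss57 was not (0.64, adjusted p = 0.0647). Of those called, Mpo was at 0.985, 0.833, 1.34 and 1.11 times its T and NK-like level and is not told apart from background. Without either vehicle mouse only 1 of the 6 was called, and the call of Ms4a3 was lost (adjusted p = 0.0865 and 0.0857).

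**Figure D5:**
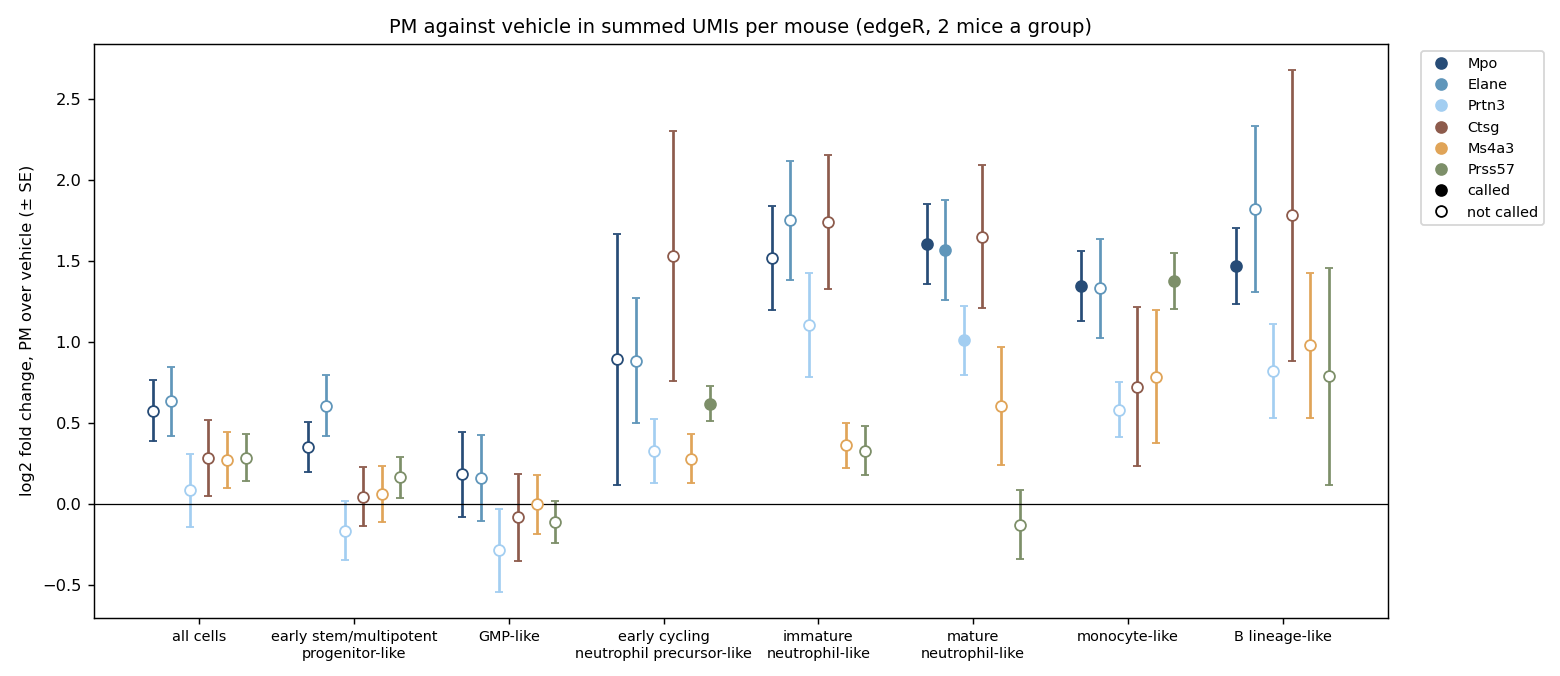
log2 fold change of PM over vehicle for each gene in sums per mouse, with bars for ± SE from edgeR (2 mice a group); filled points were called and open points were not. The 6 genes lie around 0 in GMP-like cells, Prss57 is called in early cycling neutrophil precursor-like and monocyte-like cells, and Mpo is called in mature neutrophil-like, monocyte-like and B lineage-like cells.

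In monocyte-like cells Prss57 and Mpo rose with PM. Prss57 went from 7.11 and 5.95 to 17.1 and 18.0 CPM and Mpo from 204 and 231 to 667 and 459.4 CPM. The log2 fold changes were 1.38 ± 0.17 for Prss57 (adjusted p = 0.00772) and 1.35 ± 0.22 for Mpo (adjusted p = 0.0404) by edgeR's quasi-likelihood test, where 1.54% of 11754 genes were called. Elane (1.33), Ms4a3 (0.79), Ctsg (0.73) and Prtn3 (0.58) were not called. In UMIs per cell the sum of the 6 genes was 24.2, 27.4, 51.1 and 40.6, at least 64.8 times that in T and NK-like cells of the same mouse, so background made up little of the level.

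Most UMIs of the 6 genes in the monocyte-like class were held by a small part of the cells. Cells with 100 or more UMIs of the 6 genes numbered 69, 55, 180 and 50 and held 62.5%, 68.8%, 74.8% and 63.2% of the class's UMIs of these genes. The remaining cells of the class held 9.80, 9.34, 14.9 and 16.6 UMIs per cell, again higher in both PM mice. Cells with at least 10 UMIs were 29.9%, 29.9%, 43.9% and 48.3% of the class, and 30.4%, 30.3%, 43.3% and 48.4% without called doublets. Doublets were 10.98%, 6.83%, 19.2% and 9.90% of monocyte-like cells. They held 15.2%, 6.32%, 35.7% and 23.1% of the 6 genes' UMIs in this class. Among the cells with 100 or more UMIs, 10, 3, 53 and 9 were called doublets. With doublets removed, the changes of Prss57 and Mpo were 1.06 and 0.99 and neither was called (adjusted p = 0.0542 and 0.110). Prss57 was also not called without PM 1 or PM 2 (adjusted p = 0.160 and 0.0625), nor Mpo without vehicle 1 or PM 1 (0.0657 and 0.0883).

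The cycling monocyte-like cluster carried both calls. Prss57 was at 10.1, 8.80, 23.0 and 23.8 CPM there (log2 fold change 1.27) and Mpo at 313, 344, 942 and 632 CPM (1.23), where 1.45% of 11169 genes were called. Without each of the 4 mice in turn, the log2 fold changes in this cluster were 1.20 to 1.36 for Prss57 and 0.87 to 1.53 for Mpo. Called doublets made up 13.9% of its cells, and the cluster was not tested with doublets removed. In the other cluster Elane was called, at 31.5, 19.7, 104 and 112 CPM and 2.03, where 2.25% of 10464 genes were called, and not without PM 1 or PM 2.

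Some GMP markers were called higher in the monocyte-like class, and some were called in each neutrophil-like class too. In this class 1.54% of 11754 genes were called. Of the 15 markers used to name GMP-like cells, all 15 were tested there, 5 were called higher and none lower. These were Cd34 (1.54), Gfi1 (1.61), Myb (0.96), Rab44 (0.66) and Gstm1 (0.60). The summed level of the 15 overlapped between the groups, at 3621, 2918, 3663 and 3305 CPM, and none of the 15 was at 0. Of 14 monocyte markers tested in the same class, 3 were called lower and none higher (median -0.40), namely Ace (-2.87), Cx3cr1 (-1.33) and Ccl9 (-0.72), which are named after their values were seen. In early neutrophil precursor-like cells 2 of 14 GMP markers tested were called higher, Gfi1 (0.79) and Cebpa (0.98), beside 2.49% of all genes tested. The summed level of the GMP markers there was 1604, 1641, 2311 and 2231 CPM. Calls in either direction were 3 of 14 GMP markers tested in immature and 6 of 13 in mature neutrophil-like cells. Of all genes tested there, 6.52% and 7.85% were called. In GMP-like cells none of the 15 was called, and 4 had an unadjusted p under 0.05. Whether a different mix of early and late cells within a class made part of the result was not tested.

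Whether PM moved the genes differently in the lineages was tested as an interaction between condition and lineage, with the mouse as a block. The neutrophil lineage was the sum of early precursor-like, immature and mature neutrophil-like cells, and the monocyte lineage was the monocyte-like class. Mature neutrophil-like cells were 30.1%, 25.3%, 20.5% and 23.4% of kept cells. The part of the mix of stages within a lineage in the difference was not tested. Prss57 rose less in the neutrophil lineage (log2 fold change 0.47, not called, where 5.31% of 12158 genes were called) than in the monocyte lineage (1.38), a difference of -0.89 ± 0.17 with an adjusted p of 0.0118 by edgeR, where 3.20% of 13078 genes were called. The other 5 genes were not called, with differences of -0.46 for Ms4a3 and Elane, -0.33 for Mpo, -0.17 for Prtn3 and 0.73 for Ctsg. The difference of Prss57 was called without each mouse in turn (-1.07 to -0.77), but with doublets removed it was -0.57 and was not called (adjusted p = 0.228).

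Other genes of the granule pathway were compared by fixed lists. The lists held 8 transcription factors of the lineage, 7 genes of protein folding, processing and storage, 7 protease inhibitors, 10 other lysosomal or granule proteins and 6 neighbours on chromosome 10. Over all cells, in early progenitor-like and in GMP-like cells, 0 genes of the 5 lists were called by edgeR, while 11 of 38, 5 of 33 and 7 of 34 tested had an unadjusted p under 0.05. Of all genes, 1993 of 15581, 998 of 12146 and 1461 of 10722 had such a p. Only 0.0128%, 0.107% and 0.877% of them were called, so 0 calls cannot show that the lists did not move. In early neutrophil precursor-like cells 3 of 36 genes of the lists were called, beside 2.49% of all genes tested. In GMP-like cells the median log2 fold changes were 0.15 for the factors, -0.10 for folding and storage, -0.01 for the inhibitors, -0.01 for the other granule proteins and 0.16 for the 4 neighbours tested.

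Srgn, the proteoglycan serglycin on which granule enzymes are stored, was at 2487, 2604, 2825 and 2272 CPM in GMP-like cells. Ctsc, the protease that activates the granule serine proteases, was low there at 14.2, 11.3, 18.9 and 12.5 CPM and high in monocyte-like cells at 853, 587, 496 and 534 CPM. The activating enzyme was thus most abundant outside the class that held most mRNA of its substrates. Serpinb1a, an inhibitor of elastase, proteinase 3 and cathepsin G, was at 822, 809, 836 and 773 CPM in GMP-like cells, at 809, 730, 804 and 721 CPM in early neutrophil precursor-like cells and at 89.6, 64.5, 144 and 147 CPM in mature neutrophil-like cells, where it was called higher with PM (0.95). In mature neutrophil-like cells 9 of 36 genes of the 5 lists were called, 7 higher and 2 lower, beside 7.85% of all genes tested, and in immature ones 3 of 36, beside 6.52%.

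Gfi1, a repressor needed for neutrophil fate, was at 253, 210, 266 and 374 CPM in GMP-like cells and at 55.0, 63.4, 95.2 and 122 CPM in early neutrophil precursor-like cells. In the latter Gfi1, Cebpa and the inhibitor Cstb (0.67) were called higher with PM, and in monocyte-like cells Gfi1, Myb and the inhibitor Stfa3 (2.27) were. In mature neutrophil-like cells the factors Gfi1 (2.12), Cebpe (1.46), Myb (1.06) and Cebpa (0.89), the lysozyme gene Lyz2 (1.17) and Cd63 (0.67) were called higher besides Serpinb1a, and Cd68 (-1.04) and Lamp1 (-0.64) lower. In immature ones Gfi1 (0.78) and Nkg7 (1.98) were called higher, and the inhibitor Stfa2 (-1.50) lower. Lyz2, Stfa2, Cd63, Cd68, Lamp1, Nkg7, Cstb, Stfa3, Myb, Cd34, Rab44 and Gstm1 are named because they were called, after their values were seen. Cebpa was at 62.4, 59.5, 66.1 and 80.8 CPM and Cebpe, which drives the later granule stage, at 403, 387, 356 and 379 CPM in GMP-like cells. Both PM mice were higher for Cebpa and lower for Cebpe, by narrow margins, and neither was called there.

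Cfd, the gene next to Elane, did not share its level. Cfd was at 0.982, 1.59, 1.37 and 3.03 CPM in GMP-like cells and at 0.140, 0.145, 0.257 and 0.448 CPM over all cells, while Elane was at 7475 to 10027 CPM in the former. Of 10 genes of the secondary granules, the next set to be made, 0 were called with PM by edgeR over all cells, in GMP-like, in early neutrophil precursor-like or in monocyte-like cells, while 1, 5, 4 and 1 had an unadjusted p under 0.05. In immature neutrophil-like cells Fcnb was called lower (-0.70) and in mature ones Camp was called higher (1.20), each 1 of 10 and named after its values were seen. Of all genes tested, 6.52% were called in the immature class and 7.85% in the mature class.

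The 5 genes whose level over the 28 clusters was most like the summed level of the 6 were Dmkn (Pearson's r 0.876), Trim45 (0.872), Plppr3 (0.867), Gstm1 (0.853) and Kcnk12 (0.839). The likeness was measured on log2(CPM + 1) averaged over the 4 mice, for genes with at least 20 CPM in a cluster. Clusters of the same libraries are not independent, and r is a description. Dmkn and Gstm1 were among the markers used to name GMP-like cells. Plppr3 overlaps Prtn3 on the other strand, and whether reads of Prtn3 were counted to it was not tested. The 6 genes themselves had r of 0.853 (Prss57) to 0.972 (Elane) with their sum.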

How the data were processed

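Single-cell libraries from the marrow of 4 mice were compared, 2 with vehicle and 2 with PM. The authors deposited filtered count matrices (UMI counts per gene and barcode, raw and not normalized), 1 per mouse, whose header names Cell Ranger 6.0.1. The study's methods name GRCm38 as the reference, whereas the submitters' processing notes name GRCm39, with Cell Ranger and STAR. Gene positions are given on GRCm38. Groups came from the labels, and all 4 matrices were used, with 0 value columns left unassigned. The members and lists were chosen with earlier results of these data known.

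A barcode was kept if it had 300 or more genes and no more than 20% of its UMIs from mitochondrial genes. Clusters were made with scanpy 1.11.5 from 2500 variable genes, without the 6 genes, with 30 principal components, 15 neighbours and Leiden clustering at a resolution of 1 (leidenalg 0.10.2), which gave 28 clusters. A cluster was named from at least 3 raised markers. Doublets were called as the barcodes with the highest Scrublet scores, at 0.8% per 1000 barcodes, because the automatic threshold did not work in every library; they were kept, and removed as an alternative. Names rebuilt in this way may differ from those of the study.

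UMIs were summed per mouse and class and tested with edgeR 4.0.16 in R 4.3.3 (TMM, filterByExpr, robust quasi-likelihood), with Benjamini-Hochberg adjustment over all genes tested in that class. Calls needed an adjusted p under 0.05 and an absolute log2 fold change over 0.5. The SE is the absolute log2 fold change divided by the square root of the F statistic. On simulated counts with 200 changed genes, in GMP-like cells (10722 genes) 89% of those at an absolute log2 change of 1 and 96% of those at 2 were recovered, and over all cells (15581 genes) 50% and 95%. The simulation gave all genes of a class the same dispersion (spread among mice). Recovery of genes that vary more among mice was therefore not measured, and these shares do not apply to each of the 6 genes. Alternatives were DESeq2 1.42.0, other scalings, no filter on low counts, leaving out each mouse, a replicate block, removal of doublets, a stricter cell filter (at least 500 genes, at most 10% mitochondrial UMIs), and other clusterings. Tests within single clusters and in lymphocyte-like and basophil-like cells, subtraction of the T and NK-like level, and the class shares under other settings were added after seeing the data. The replicate numbers were not taken to pair the mice, since nothing in the labels ties them, and deviations of mice with the same number correlated at only -0.124 to 0.066. Named genes were the 6 in every class, genes of the fixed lists called over all cells or in GMP-like cells, Ctsc, Srgn, Serpinb1a, Cebpa, Cebpe, Gfi1 and Cfd whether called or not, and the 5 genes most like the sum.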

Additional observations from a re-analysis of the deposited data

Results flagged for a closer look

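The response of Prss57 to PM, in sums over all stages of a lineage, differed between lineages by a test of the difference itself. The mix of stages within a lineage was not adjusted for. The log2 fold change was 0.47 in the neutrophil lineage and 1.38 in the monocyte lineage, and the interaction was -0.89 with an adjusted p of 0.0118 by edgeR's quasi-likelihood test over 4 mice. With RLE size factors it was -0.91. With doublets removed it was -0.57 and was not called (adjusted p = 0.228).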

How the results depend on the processing

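With 2 mice a group, counts of calls moved easily. Over all cells 0 of the 6 genes was called, and 1 with DESeq2. Over the 6 myeloid classes 6 of 36 tests were called, against 11 with DESeq2, 13 with total counts and no TMM, 14 with no filter on low counts and 12 with the replicate block. Calls among all genes moved as well. In monocyte-like cells 181 of 11754 were called, against 410 with total counts and 478 with the block. There 249 of 17571 were called with DESeq2 and 752 with no filter. In immature neutrophil-like cells 706 of 10836 were called, against 1111 with total counts and 932 with the block. There 487 of 17104 were called with DESeq2 and 1221 with no filter. The block gave 4 calls in immature neutrophil-like cells. In early progenitor-like cells, with 0 calls, total counts and no filter each gave 1 and resolution 2 gave 2. In early neutrophil precursor-like cells, with 1 call, keeping the members among the variable genes gave 3. In immature neutrophil-like cells, with 0 calls, DESeq2 and total counts gave 3 and no filter gave 4. In monocyte-like cells, with 2 calls, total counts and no filter gave 4, removal of doublets 0, and the members among the variable genes or resolution 2 gave 1. The interaction had 1 call, and 0 with doublets removed. The ratio of GMP-like to early neutrophil precursor-like cells was 22.3 in CPM, 33.3 in UMIs per cell and 33.9 less the T and NK-like level.

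Without each mouse in turn, calls ranged from 4 to 16 over the myeloid classes, 0 to 1 in early progenitor-like, 0 to 5 in early neutrophil precursor-like, 0 to 4 in immature, 1 to 4 in mature neutrophil-like and 0 to 3 in monocyte-like cells, and 1 to 2 for the interaction. Directions that turned without a mouse were, in ranges of the log2 fold change, Prtn3 (-0.15 to 0.32) and Ctsg (-0.064 to 0.54) over all cells. In early progenitor-like cells they were Prtn3 (-0.36 to 0.059), Ctsg (-0.26 to 0.30) and Ms4a3 (-0.17 to 0.34), and in GMP-like cells Elane (-0.076 to 0.37), Ctsg (-0.55 to 0.28) and Ms4a3 (-0.13 to 0.13). Further on they were Mpo (-0.18 to 1.503) in early neutrophil precursor-like cells, Prss57 (-0.27 to 0.00022) and Ms4a3 (-0.060 to 1.03) in mature neutrophil-like cells, and Prtn3 (-0.023 to 0.64) and Mpo (-0.71 to 1.47) in the cluster led by Chil3. In the interaction they were Prtn3 (-0.39 to 0.029) and Mpo (-0.71 to 0.028).

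At resolution 2, early progenitor-like cells had log2 fold changes of -0.34 for Prss57, -0.41 for Elane, -0.91 for Mpo, -1.07 for Ctsg and -1.29 for Ms4a3, each reversed. That class was then only 126, 110, 161 and 154 cells, and GMP-like cells, at 4.44%, 3.90%, 5.76% and 5.72% of kept cells, included more of the others. With the members among the variable genes, Prss57 was -0.076 and Ctsg -0.12 in early progenitor-like and Prss57 0.013 in GMP-like cells. Ms4a3 in GMP-like cells turned to 0.040 with total counts, 0.035 with doublets removed, 0.029 with the members among the variable genes and 0.015 at resolution 2. The cause of these changes was not tested. Of the values under alternatives that left out no mouse, 339 kept their direction and call. Levels well below 1 UMI per cell include a background that was not measured apart. In immature neutrophil-like cells Ms4a3 and Prss57, and to a lesser degree Elane and Prtn3, still stood above the T and NK-like level.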

Other observations

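One cluster of 324 cells (18, 49, 202 and 55) was left without a name because 93.2% of its cells were called doublets. It was led by the B cell genes Ms4a1, Ighd and Cd79a and held 6969, 2024, 5966 and 4430 CPM of the 6 genes. The first PM mouse contributed most of its cells.

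In some rare classes the level differed widely among the 4 mice. The sum of the 6 genes was 155, 81.0, 1175 and 144 CPM in plasmacytoid dendritic-like cells and 382, 29.2, 781 and 168 CPM in plasma-like cells. In erythroid-like cells it was 513, 32.0, 335 and 169 CPM. The highest mouse was PM 1 in the first and second of these classes and vehicle 1 in the last.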
